A study of Mus musculus with 16 samples.

Results

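Node and notochord cells made up 138 of the 37841 single cells used from chimeric mouse embryos, or 0.365%. They were the cells whose transferred label was Node or Notochord, the names of 2 of the 87 cell types that the authors carried over from a reference atlas of the early mouse embryo, and all stages were pooled. Of the 138 cells, 58 were WT and 80 were *Stat3* null. In these chimeras, tdTomato-expressing *Stat3* null embryonic stem cells (ESCs) of the CD1 background had been injected into CD1 WT blastocysts, and embryos of E7.5, E8.5 or E9.5 (days after conception) were collected, dissociated and sorted by tdTomato into 10x Genomics 3' v3 libraries. The WT group was the tdTomato-negative host cells and the null group the tdTomato-positive donor cells of the same kind of embryo, with no further treatment. Each genotype had 2 libraries of E7.5, 2 of E8.5 and 4 of E9.5, lettered A to D within each group below because their names could not be matched to single samples.

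Several features limit these groups as a model. The null cells are the descendants of injected ESCs and the WT cells are host cells, so the history of the donor cells in culture and the loss of *Stat3* cannot be told apart. By the labels an E7.5 pool held about 10 embryos, an E8.5 pool 4 and an E9.5 sample a single embryo, whereas the study counts fewer embryos at each stage than these pools add up to. It is therefore not known whether the 4 E9.5 libraries of a genotype came from separate embryos, and p-values measure the spread between libraries only. The study also classed its E7.5 embryos by size, so libraries A and B of a genotype may hold embryos of different size at that stage. Library totals over all cells ran from 20682659 to 138613245 unique molecular identifiers (UMIs, each counting 1 captured transcript), and the members held 10102 to 98229 UMIs each, with a median of 24694. Of the members, 4 carried a barcode that was also a kept cell of another library, and in 0 of these pairs were both cells members.

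The node is a transient pit at the front end of the primitive streak, and its motile cilia drive the leftward flow that sets the left-right axis. Cells that leave the node form the notochord, a rod under the neural tube that secretes Sonic hedgehog and antagonists of BMP, patterns the floor plate and somites, and later builds a sheath of collagen and proteoglycan. NOTO is a homeobox factor of the node and notochord, T (Brachyury) is the T-box factor that the notochord needs, FOXA2 is the forkhead factor of the organizer, floor plate and endoderm, and *Shh* encodes the secreted signal itself.

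The targeted gene was too rare in these cells to check the genotype in them. *Stat3* (GRCm38 chromosome 11, 100885098-100939540) had 14 UMIs in all among the cells analysed below, and its level was 0 to 20.4 CPM (UMIs of a gene per 1000000 UMIs of the cells summed) in the WT libraries and 0 to 14.2 CPM in the null libraries. The difference between null and WT over stages was -0.81 CPM (two-sided exact permutation test within stages, p = 0.900, where 0.00278 is the smallest p that 14 libraries allow). In all other cells of the same libraries *Stat3* stood at 6.14 to 9.33 CPM in WT and at 1.18 to 2.54 CPM in null, with no overlap. A tdTomato UMI was present in 76 of the 80 null members.

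The labels fitted the 4 markers at E7.5 and E8.5 and failed in part at E9.5. All 69 members of E7.5 and all 35 of E8.5 held UMIs of at least 2 of the 4 markers, and over all stages 70 of the 138 cells held all 4. The exceptions were 7 cells of E9.5 with 0 or 1 marker, 5 labelled Node and 2 labelled Notochord, in which *T*, *Noto* and *Shh* were at 0 UMIs. Every cell labelled Node at E9.5 was among them, so no Node-labelled cell of that stage held 2 markers. In both Node-labelled cells of E9.5 WT C, *Gcg*, the glucagon precursor, had 656 and 932 UMIs, *Pyy*, the gut hormone peptide YY, 305 and 458, and *Isl1*, a LIM-homeobox factor, 31 and 67. A pair of the 3 Node-labelled cells of E9.5 null A had 34 and 397 UMIs of *Pyy*, 18 and 66 of *Isl1* and 0 of *Gcg*. The third of them and the Notochord-labelled cell of E9.5 WT A that lacked markers had 41 and 18 UMIs of *Dct* and 27 and 6 of *Pmel*, both pigment genes. The last, from E9.5 WT B, had 9 UMIs of *Lum* and 8 of *Col2a1*. *Gcg* was at 0 in the 131 members with 2 or more markers and reached at most 6 UMIs in a cell of another type. The 7 cells count in the shares below, and gene levels were measured in the 131 cells with at least 2 markers.

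As a description of what the labels captured, *Noto* led the genes that set these cells apart from all others. Its mean over libraries was 174 CPM against 0.0819 CPM in all other cells, and it was at 0 in the 1032 hindbrain floor plate cells. Of the 20 leading genes, 3 were unnamed Riken genes and most of the rest are cilia genes. Among them were *Dnajb13*, *Tekt4*, *Drc1*, *Rsph4a*, *Pifo*, *Cfap53* and the dynein heavy chains *Dnah5* and *Dnah6*, together with *Foxj1*, the master regulator of motile cilia. These means pool the stages, and the cilia genes describe the Node-labelled cells of E7.5, whereas *Shh*, *T*, *Car3*, *Cthrc1*, *Krt19* and *Nog* were among the leading genes of the 12 Node-labelled cells of E8.5. Against the floor plate, which also makes Sonic hedgehog, the 14 libraries averaged 1060 ± 332 CPM of *T* (SD; 1.11 in floor plate), 643 ± 456 CPM of *Shh* (264), 139 ± 75.1 CPM of *Foxa2* (181), 237 ± 106 CPM of *Nog* (15.5) and 61.9 ± 48.0 CPM of *Sox2*, a neural and pluripotency factor (508). Against the gut tube, which shares keratins with the notochord, *Krt8* averaged 937 CPM (931 in gut tube) and *Sox17*, an endoderm factor, 2.84 CPM (95.4). The labels rest on all genes of each cell, so these contrasts carry no test.

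*Noto* is one of the markers that chose these cells, so the shares of cells in which it was detected are a description. After thinning each cell to 10000 UMIs, *Noto* was detected in 70.8% of Node-labelled cells at E7.5 (95% exact binomial interval 58.2 to 81.4%), in 58.3% of Node-labelled cells at E8.5 (7 of 12, 27.7 to 84.8%), in 17.4% of Notochord-labelled cells at E8.5 (4.95 to 38.8%) and in 59.3% of those at E9.5 (38.8 to 77.6%). Without thinning the shares were 87.7%, 58.3%, 21.7% and 70.4%, at median depths of 25229, 16859, 15284 and 28093 UMIs per cell. In erythroid cells, which should lack the gene, *Noto* was found in 0 of 2194 cells with a median depth of 34310.5 UMIs, which allows at most 0.168% (exact upper bound). Intervals cover counting error only.

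Whether null cells contributed to the node and notochord as WT cells did was asked from the share of each library. At E7.5 the members were 1.38% and 0.673% of WT libraries A and B and 1.93% and 1.39% of null libraries A and B. Both null libraries lay above both WT libraries at that stage, although null B exceeded WT A by little and the 95% exact binomial intervals of single libraries were wide. The shares at E8.5 were 0.314% and 0.261% in WT and 0.235% and 0.698% in null, and the groups overlapped. At E9.5 the WT libraries held 0.195%, 0.0379%, 0.315% and 0.126% and the null libraries 0.139%, 0.207%, 0.126% and 0.194%, again overlapping. Each E7.5 library held a larger share than any later library, except that E7.5 WT B lay below E8.5 null B.

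**Figure D1:**
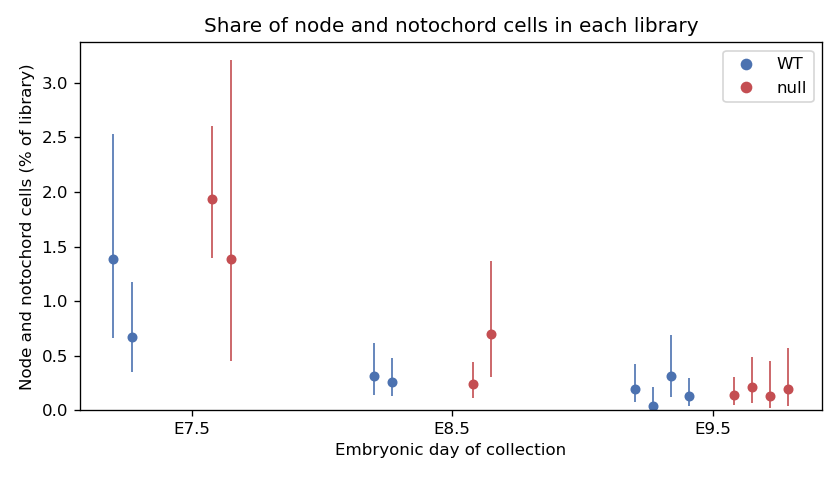
Node and notochord cells as a percentage of the cells of each of the 16 libraries, by embryonic day of collection, with WT in blue and null in red. Points are libraries and bars are 95% exact binomial intervals; both null libraries of E7.5 (1.93% and 1.39%) lie above both WT libraries (1.38% and 0.673%), and the groups overlap at E8.5 and E9.5.

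No difference in share passed the test at any stage. In edgeR's quasi-likelihood test on cells per type, the log2 difference of null over WT was 0.37 (SE 0.56, adjusted p = 0.990) at E7.5, 0.55 (SE 0.66, adjusted p = 0.984) at E8.5 and 0.02 (SE 0.79, adjusted p = 0.997) at E9.5, with Benjamini-Hochberg adjustment over 27, 68 and 71 types. In the same tests 3 of 27 types (11.1%, all lower in null), 0 of 68 (0%, 3 at an unadjusted p under 0.05, and 0 by DESeq2) and 1 of 71 (1.41%, lower in null) passed. Over all stages the mean difference was 0.270 percentage points (two-sided exact permutation test within stages, p = 0.225). The pace of development, a question of the study, was read from the atlas stage to which each cell was mapped: over the 13 libraries with at least 5 members the null mean differed from the WT mean by 0.0639 days (exact permutation test, p = 0.611), and by 0.0046 to 0.118 days with a library left out. The mean joins stages of unlike sign: at E8.5 null was above WT (8.28 against 8.03), while the E9.5 libraries that entered it stood at 8.125 and 8.45 in null and at 8.58, 8.08 and 8.65 in WT, with the cells without markers included. With only cells of at least 2 markers, and over the 14 libraries with at least 3 of them, the difference was 0.0634 days (exact permutation test, p = 0.536). For the Notochord label alone, over 6 libraries, it was 0.158 days (exact permutation test, p = 0.556). The Node label took 2.68 percentage points more of the null members than of the WT members (exact permutation test, p = 0.775). That value turned to -1.95 points (exact permutation test, p = 0.778) when only cells with at least 2 markers were counted.

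The 4 markers were present in every library with enough cells to sum, at levels that differed among them. For gene levels the counts were summed per library over the marker-holding cells, and 14 libraries with at least 3 such cells (129 cells) entered 1 edgeR fit with stage and genotype, in which 3215 genes were tested. A gene was called when its adjusted p was under 0.05 and its log2 fold change over 1 in size. *Noto* (chromosome 6, 85423886-85428877) stood at 217 and 104 CPM in E7.5 WT and 222 and 253 CPM in E7.5 null. It was 54.3 and 6.61 CPM in E8.5 WT and 82.7 and 191 CPM in E8.5 null. At E9.5 it ranged from 32.5 to 441 CPM in 3 WT libraries and from 194 to 298 CPM in 3 null libraries. All 4 E8.5 libraries thus lay below the 3 highest of E7.5, yet the fitted change from E7.5 to E8.5 (log2 -1.39, SE 0.68, adjusted p = 0.208) did not pass.

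*T* (chromosome 17, 8434423-8442496) was the steadiest of the 4, from 478 to 1691 CPM over the 14 libraries, with a log2 change of -0.31 (adjusted p = 0.656) from E7.5 to E8.5 and 0.05 (adjusted p = 0.978) from there to E9.5. *Shh* (chromosome 5, 28456815-28467256) was 120 to 220 CPM in the 4 libraries of E7.5 and 856 to 1194 CPM in the 4 of E8.5, with no overlap. It rose by 2.48 on the log2 scale (SE 0.54, adjusted p = 0.00888), a call lost with all labelled cells in libraries over 5 cells (adjusted p = 0.0591). *Foxa2* (chromosome 2, 148042877-148046969) was 154 to 298 CPM at E7.5 and 99.1 to 142 CPM at E8.5, and its log2 change of -0.91 (adjusted p = 0.0493) was under the fold threshold. Between null and WT, the log2 differences of *Noto*, *T*, *Shh* and *Foxa2* were 0.74 ± 0.49, -0.01 ± 0.28, 0.51 ± 0.40 and -0.16 ± 0.26 (SE), and none of them was called. The markers were used to choose the cells summed, so their levels are those of cells selected to hold them.

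**Figure D2:**
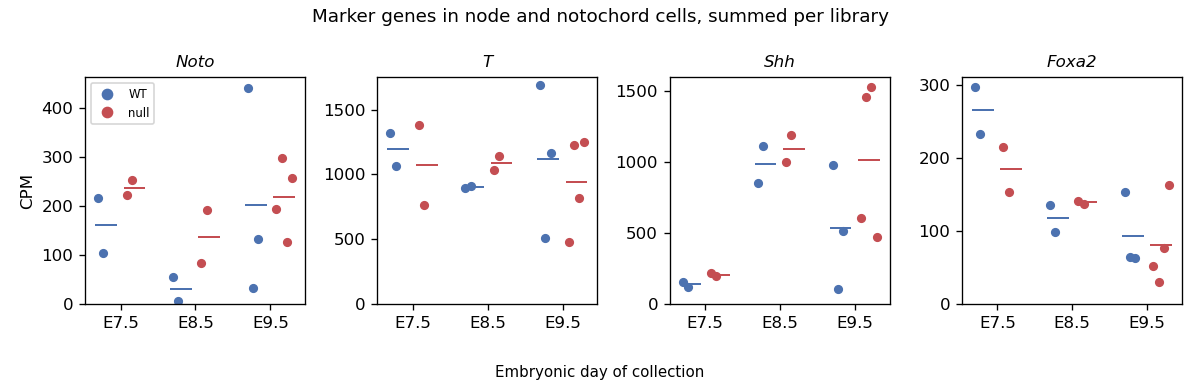
Level in CPM of *Noto*, *T*, *Shh* and *Foxa2* summed over the marker-holding cells of each library, by embryonic day of collection, WT in blue and null in red. Points are the 15 libraries with such cells, including E9.5 null C, whose 2 cells were not in the fit; lines are group means. *Shh* lies at 120 to 220 CPM in E7.5 and at 856 to 1194 CPM in E8.5, while the ranges of *T* overlap at all stages.

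Between E7.5 and E8.5 these cells lost most of their motile cilium transcripts. Over all genes 368 of 3215 (11.4%) differed between the stages, 167 (5.19%) higher and 201 (6.25%) lower at E8.5. The 4 libraries of each stage did not overlap for 333 of these called genes. That count only describes the calls, since the share without overlap over all 3215 genes is not given here. Of 38 listed cilia and left-right genes, 18 passed the filter on low counts and 16 of these fell. Genes at or near 0 after E7.5, such as *Foxj1*, *Pifo* and *Tekt1*, passed it through their E7.5 libraries alone and so had to differ, which makes the count a description, and the other 20 were not tested. *Foxj1* (chromosome 11, 116330704-116335399) was 669, 418, 639 and 666 CPM in the E7.5 libraries and 0 in all libraries of E8.5 and E9.5. It was at least 129-fold lower at E8.5, counting a floor of 3 UMIs over the group of 35 cells. *Pifo*, which acts in the disassembly of primary cilia, was at least 121-fold lower and *Cfap126* and *Tekt1*, of the axoneme and its microtubules, at least 101-fold and 59.7-fold lower by the same floor. *Rsph1*, of the radial spokes, fell from 847 UMIs to 3 (ratio of CPM 89.6, counting interval 30.6 to 435).

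Further members of the list fell by smaller amounts. *Rsph9*, another radial-spoke gene, fell by 2.44 on the log2 scale (SE 0.51, adjusted p = 0.00091). *Ift88*, an intraflagellar transport subunit, fell by 2.01 on the log2 scale (SE 0.30, adjusted p = 1.29e-05), *Kif3a*, the motor of that transport, by 1.29 (SE 0.34, adjusted p = 0.00724) and *Rfx3*, a factor that switches on ciliary genes, by 1.60 (SE 0.37, adjusted p = 0.00275). *Rsph9*, *Ift88* and *Kif3a* passed the filter through E7.5 alone, so their falls are a description too. *Mns1* fell by 3.46 (SE 0.26) and kept 35.8 to 85.9 CPM at E8.5, below its 501 to 754 CPM at E7.5. *Bicc1*, an RNA-binding protein of the node's response to flow, fell by 1.60 (SE 0.50, adjusted p = 0.0481). The 2 members of the list not called were the tubulins *Tuba1a* (log2 -0.47, adjusted p = 0.235) and *Tubb4b* (-0.89, adjusted p = 0.140). The label mix moved with the stage, since 65 of 69 members were labelled Node at E7.5 and 12 of 35 at E8.5. Within the Node label alone the pooled level of *Foxj1* went from 650 CPM to 0 between these stages, and that of *Pifo* from 603 CPM to 0. Thinned to 10000 UMIs, *Foxj1* was found in 86.2% of 65 Node-labelled cells at E7.5 (75.3 to 93.5%) and in 0 of 12 at E8.5, which allows at most 26.5%. In hindbrain floor plate cells it was found in 14.6%.

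The promoters of some of these genes carry core letters of the X-box, the element bound by RFX factors, and the windows of a pair of tektin genes are shown as examples. Each holds the letters once on each strand, as do the windows of *Mns1* and of *Iqcg*, another gene that fell, which are not printed. The letters searched were GTTGCC and, on the other strand, GGCAAC, in capitals below, in the RefSeq windows of GRCm38.p6 from 250 bases before to 50 after each start. At least 1 match was present in 7 of the 12 cilia-list genes lower at E8.5 that had a window (58.3%), in 51 of 165 of all genes lower at E8.5 (30.9%), in 14 of 122 higher (11.5%) and in 3423 of 27025 promoters in all (12.7%). *Tekt1* and *Tekt2* encode tektins, filament proteins of the axoneme. The 150 bases before the start are printed for *Tekt1* (chr11:72361883-72362032, minus strand, matches starting at -35 and -15, within the GENCODE span of the gene and outside its exons), for *Tekt2* (chr4:126325689-126325838, minus strand, matches at -96 and -22) and, for comparison, for *Noto* (chr6:85423736-85423885, plus strand, no match), each from 5' to 3' on its own strand.
Tekt1: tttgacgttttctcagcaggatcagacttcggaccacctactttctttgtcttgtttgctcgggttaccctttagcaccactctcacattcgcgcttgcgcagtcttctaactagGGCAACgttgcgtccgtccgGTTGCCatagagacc
Tekt2: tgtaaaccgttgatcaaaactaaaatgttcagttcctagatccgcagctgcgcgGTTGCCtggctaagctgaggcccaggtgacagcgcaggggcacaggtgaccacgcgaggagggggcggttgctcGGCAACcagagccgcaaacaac
Noto: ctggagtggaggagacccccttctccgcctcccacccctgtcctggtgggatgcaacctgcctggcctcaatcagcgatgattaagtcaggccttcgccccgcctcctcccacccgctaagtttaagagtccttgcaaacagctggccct
*Tekt2* fell with *Tekt1*, from 67.6 to 162 CPM in the 4 libraries of E7.5 to 0, 0, 0 and 5.97 CPM at E8.5. A match describes the letters of the window and is not evidence of a bound site.

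Among the regulators of the organizer, 8 of 15 listed transcription factors were tested from E7.5 to E8.5, and 1 rose and 3 fell, beside 5.19% higher and 6.25% lower over all genes. The count is a description, since *Lhx1* and *Foxj1*, among those that fell, were at or near 0 later and passed the filter through E7.5 alone. *Sox9*, which directs cartilage and notochord sheath genes, rose by 1.33 on the log2 scale (SE 0.39, adjusted p = 0.0362), from 129 to 330 CPM to 591 to 899 CPM with no overlap. *Lhx1*, a LIM-homeobox factor of the organizer, fell from 541 UMIs to 3 (ratio of CPM 57.2, counting interval 19.5 to 278). Of 25 secreted signals and antagonists, 7 were tested, and *Shh*, *Slit2* and *Fstl1* rose while *Chrd* fell. *Chrd*, the BMP antagonist chordin, was 151, 98.3, 90.2 and 117 CPM at E7.5 and 6.79, 19.8, 29.5 and 17.9 CPM at E8.5, a fall of 2.65 (SE 0.39, adjusted p = 1.08e-05). The fall of *Chrd*, which passed the filter through E7.5 alone, is a description too. *Nog*, the BMP antagonist noggin, stayed at 129 to 388 CPM in both stages (log2 0.25, SE 0.42, adjusted p = 0.757). *Slit2*, a guidance cue, rose by 1.49 (SE 0.29, adjusted p = 0.00162).

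Most signals of the left-right cascade were left out of the fit by its filters, so they are given as levels. *Nodal*, the left-side determinant, was 46.1 to 118 CPM in the 4 libraries of E7.5 and 0, 0, 0 and 5.97 CPM at E8.5. *Dand5*, its antagonist at the node, was 39.9 to 320 CPM and then 0 to 23.9 CPM, and *Cer1*, a secreted antagonist, 47.8 to 132 CPM and then 0. *Cfc1*, a co-receptor of Nodal, was tested and fell by 2.80 (SE 0.43, adjusted p = 1.68e-05). It was the single call among 3 tested of 17 pathway genes, beside 6.25% lower over all genes. With 1, 3, 1 and 9 UMIs at E8.5, *Cfc1* passed the filter on low counts through E7.5 alone, so its fall is a description. Of 20 Hedgehog pathway genes, 3 were tested and 1, *Shh*, was called, beside 5.19% higher over all genes. *Ptch1*, receptor and target, (log2 0.48, adjusted p = 0.421) and *Smo*, the signal transducer, (-0.76, adjusted p = 0.0509) were not called.

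Most of the tested genes of the notochord sheath and matrix moved the other way. Of 25 listed, 12 passed the same filter, 9 rose and 0 fell, beside 5.19% higher and 6.25% lower over all genes. The count is again a description, since the genes that rose were low at E7.5 and passed through the later stages. This holds for *Vcan*, *Col2a1*, *Col9a1*, *Fbn2*, *Col11a1*, *Nid2*, *Col4a2* and *Col18a1*, so the rise of each given below is a description too. *Vcan*, the proteoglycan versican, was 11.03, 0, 15.04 and 10.98 CPM at E7.5 and 346, 377, 225 and 233 CPM at E8.5, a rise of 4.42 (SE 0.34, adjusted p = 9.66e-10). *Col2a1*, the main cartilage collagen, was 3.68 to 36.6 CPM and then 251 to 537 CPM (log2 4.60, SE 0.77, adjusted p = 0.00163). *Col9a1*, a collagen bound to it, rose by 4.48 (SE 0.67) and *Fbn2*, a fibrillin, by 3.51 (SE 0.51). *Col11a1* went from 2 UMIs to 97 (ratio of CPM 153, counting interval 41.2 to 1280). The basement membrane genes *Nid2*, *Col4a2* and *Col18a1* rose by 1.72, 1.42 and 1.98. In all other cells *Vcan* was 33.2 to 52.8 CPM at E7.5 and 120 to 123 CPM at E8.5, so it rose there as well, by less.

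**Figure D3:**
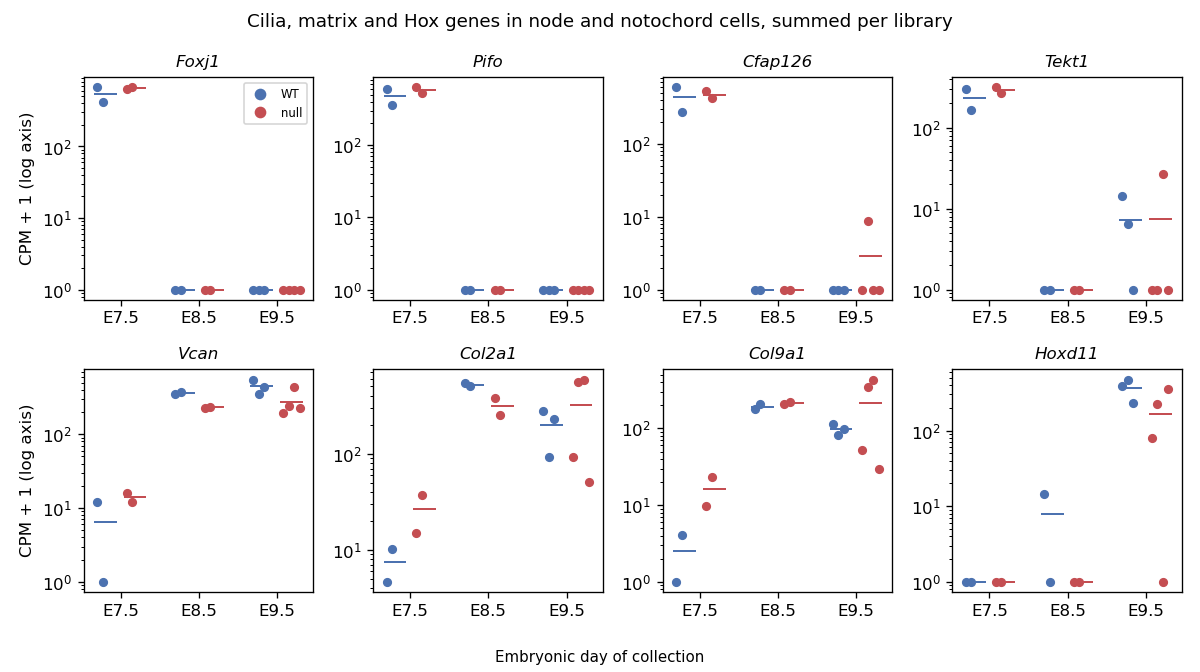
Level of 4 cilia genes (*Foxj1*, *Pifo*, *Cfap126*, *Tekt1*), 3 matrix genes (*Vcan*, *Col2a1*, *Col9a1*) and *Hoxd11* summed over the marker-holding cells of each library, as CPM plus 1 on a log axis, by embryonic day, WT in blue and null in red. Points are the 15 libraries with such cells (E9.5 null C, with 2 cells, was not in the fit) and lines are group means; *Foxj1* drops from 418 to 669 CPM at E7.5 to 0 afterwards, *Vcan* climbs from at most 15.04 CPM to 225 CPM or more at E8.5, and *Hoxd11* reaches 77.6 to 472 CPM in the fitted E9.5 libraries.

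Of 14 keratin and epithelial genes, 10 were tested between E7.5 and E8.5. Of these 2 rose and 2 fell, beside 5.19% higher and 6.25% lower over all genes. *Car3*, a carbonic anhydrase of the notochord, rose by 4.12 (SE 1.12) and *Krt19* by 1.71 (SE 0.42). *Cdh1*, E-cadherin, fell by 2.16 (SE 0.43) and *Cldn6*, a tight-junction claudin, by 1.94 (SE 0.36). *Krt8* had a log2 change of 0.04 (SE 0.37, adjusted p = 0.961). Of the cell-cycle inhibitors *Cdkn1c* rose by 3.13 (SE 0.35, adjusted p = 4.86e-05) and *Cdkn1b* fell by 2.55 (SE 0.47, adjusted p = 0.000338). *Cdkn1b*, like *Cdh1*, passed the filter on low counts through E7.5 alone, so its fall is a description. Of 26 tested proliferation genes 0 was called, beside 11.4% called over all genes. *Igf2*, a growth factor, rose by 3.34 (SE 0.42) and *Pou5f1*, the pluripotency factor OCT4, was at least 62.6-fold lower. In all other cells *Pou5f1* went from 153 to 346 CPM to 1.76 to 7.97 CPM. *Hes1*, a Notch target, rose by 1.13 (SE 0.28) and *Prickle1*, a planar polarity gene, by 1.35 (SE 0.37). Each was the single call of its list among 3 and 4 tested genes, beside 5.19% higher over all genes. *Sostdc1*, a secreted BMP and WNT antagonist, was at 0 in all libraries of E7.5 and 285, 370, 538 and 287 CPM at E8.5, at least 248.9-fold higher over the same floor. Its adjusted p was 0.0236 with edgeR, the call was lost in 4 of 14 fits with a library left out (adjusted p up to 0.0699), and DESeq2 gave it no adjusted p. Among the 10 genes with the largest rise were also *Tgm2*, *Kdelr3*, *Lgals3*, *Ctgf* and the Hox-cluster RNA *Hoxaas3*, whose call was lost with limma-voom (adjusted p = 0.0567). *Sostdc1*, *Igf2*, *Prickle1*, *Tgm2*, *Kdelr3*, *Lgals3*, *Ctgf* and *Hoxaas3* were low at E7.5 and passed the filter on low counts through the later stages. Their rises are a description, and a kept call is no test of them. *Pou5f1* passed the filter through E7.5 alone, so its fall is a description too.

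From E8.5 to E9.5 fewer genes were called. The calls were 34 of 3215 (1.06%), 13 higher (0.404%) and 21 lower (0.653%). The libraries did not overlap for 22 of these called genes, a count that only describes the calls. Of the called genes without overlap, *Hoxd11*, a gene of the caudal axis, had the largest rise. It was 13.6, 0, 0 and 0 CPM at E8.5 and 388, 472, 229, 77.6, 222 and 356 CPM at E9.5 (2 and 263 UMIs, ratio of CPM 101, counting interval 27.7 to 839). *Hoxc10* went from 3 UMIs to 114 (ratio 29.2, interval 9.74 to 144), and *Hoxb9*, *Hoxc9* and *Hoxb4* rose by 3.74, 3.43 and 1.28 (SE 0.72, 0.70 and 0.33). *Hoxd11*, *Hoxc10*, *Hoxb9*, *Hoxc9* and *Prkar2a*, named below, were low before E9.5 and passed the filter on low counts through that stage alone. They had to rise, so their rise is a description, and a kept call below is no test of it. In all other cells *Hoxd11* also went up, from 0.819 to 2.74 CPM to 14.2 to 32.9 CPM. *Aes*, a Groucho-family corepressor, rose by 1.48 (SE 0.25, adjusted p = 0.00141), *Prkar2a*, a regulatory subunit of protein kinase A, by 1.50 (SE 0.39, adjusted p = 0.0474) and *Rrm2*, of nucleotide synthesis, by 1.21 (SE 0.31, adjusted p = 0.0494). With each of 14 libraries left out in turn, the call was lost in 13 fits for *Prkar2a*, in 10 for *Rrm2*, in 8 for *Hoxb4*, in 4 for *Hoxc9*, in 4 of the 10 that tested it for *Hoxc10* and in 1 for *Hoxb9*. Under 8 other alternatives it was lost in 5 for *Prkar2a* and for *Rrm2*, in 4 for *Hoxb4*, in 2 for *Hoxc9* and in 1 for *Hoxb9*, and in 2 of 5 for *Hoxc10*.

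Of the genes that fell to E9.5, *Slc2a1* and *Pfkl* serve glucose use. *Slc2a1*, the glucose transporter GLUT1, was 129, 225, 189 and 191 CPM at E8.5 and 57.0 to 81.3 CPM in the 6 libraries of E9.5, a fall of 1.44 (SE 0.24, adjusted p = 0.00141), and *Pfkl*, a phosphofructokinase, fell by 1.21 (SE 0.23, adjusted p = 0.00392). *Prtg*, the cell adhesion protein protogenin, fell by 1.66 (SE 0.24, adjusted p = 0.000414) and *Nr6a1*, the nuclear receptor GCNF of trunk development, by 2.49 (SE 0.50, adjusted p = 0.00854). *Car4*, *Upp1*, *Apoe*, *Loxl2*, *Sulf1* and *Bbx* completed the 10 with the largest fall and no overlap. *Loxl2* passed the filter on low counts almost only through E8.5, so its fall is a description and a kept call no test of it. With each of 14 libraries left out in turn, the call was lost in 6 fits for *Upp1*, in 4 each for *Apoe* and *Sulf1*, and in 1 each for *Loxl2* and *Bbx*. With all labelled cells in libraries over 5 cells the calls of 5 genes were lost: *Slc2a1* (-0.86, adjusted p = 0.180), *Nr6a1* (-1.53, adjusted p = 0.143), *Apoe* (-0.77, adjusted p = 0.728), *Bbx* (-0.063, adjusted p = 0.975) and *Loxl2* (-1.20, adjusted p = 0.0769). Over all the other alternatives the call was lost in 4 of 8 for *Apoe*, 2 of 8 for *Bbx*, 2 of 7 for *Nr6a1* and 1 of 8 for each of *Slc2a1*, *Loxl2* and *Sulf1*. All other cells were lower at E9.5 too, with *Slc2a1* going from 248 to 332 CPM to 99.8 to 134 CPM, *Prtg* from 227 to 270 CPM to 116 to 179 CPM and *Nr6a1* from 58.7 to 79.9 CPM to 21.8 to 33.0 CPM. The fit counted 13 calls without E8.5 WT B, 19 without E9.5 WT C, 20 without E8.5 null B and 56 without E9.5 null B. All E9.5 cells in this contrast were labelled Notochord, against 23 of 35 at E8.5.

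Blood RNA moved with the stage in these libraries. The summed level of 10 blood and endothelial markers, embryonic globins among them, was 3.07 to 28.3 CPM in the members at E7.5, 233 to 1338 CPM at E8.5, 146 to 835 CPM in WT at E9.5 and 7.64 to 71.2 CPM in null at E9.5. *Gata1*, *Klf1*, *Cdh5* and *Pecam1* were at 0 in the members of E8.5 and E9.5. In all other cells the sum reached 48952 CPM at E8.5. The part of blood RNA in the stage differences was not tested.

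Between null and WT cells, 0 of 3215 genes was called over all stages (0%), with 190 at an unadjusted p under 0.05, and 1 gene was called by DESeq2 (*Grb10*) and 1 by limma-voom (*Rsph1*). The test of whether the genotype difference in these cells departed from that in all other cells of the same libraries called 0 genes with edgeR (0%, with 170 at an unadjusted p under 0.05 and 12 called with no filter on low counts). The listed groups gave 0 calls each. The median log2 difference was 0.02 over all genes, 0.20 over the 18 tested cilia genes, -0.27 over the 26 proliferation genes and -0.13 over the 12 matrix genes. Cilia genes at or near 0 after E7.5, such as *Foxj1* and *Pifo*, rest here on 2 null against 2 WT libraries. Of 32 genes of the STAT3 pathway, 3 were tested, and the kinase *Jak1*, the target kinase *Pim1* and the survival gene *Mcl1* had log2 differences of 0.46 (SE 0.31), 0.46 (SE 0.26) and 0.11 (SE 0.18).

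*Rsph1* was not called by edgeR (log2 1.09, SE 0.28, adjusted p = 0.471). The imprinted genes *Grb10* and *H19* are given by library because earlier results of these data showed them lower in null tissues. *Grb10* (chromosome 11, 11930508-12038683), an adaptor that restrains growth-factor signalling, was 154 and 172 CPM in E7.5 WT against 3.54 and 22.0 CPM in E7.5 null. It was 530 and 687 CPM in E8.5 WT against 11.8 and 543 CPM in E8.5 null, and 742, 797 and 757 CPM in E9.5 WT against 25.9, 0 and 14.2 CPM in E9.5 null. The genotypes did not overlap at E7.5 or E9.5, and E8.5 null B lay within the range of E8.5 WT. The fitted difference was -3.02 (SE 0.77, adjusted p = 0.575), and the mean difference was -411 CPM (two-sided exact permutation test within stages, p = 0.00556).

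*H19* (chromosome 7, 142575529-142578143), an imprinted non-coding RNA, was 44.1 and 52.2 CPM in E7.5 WT against 4.42 and 0 CPM in E7.5 null. Its values were 605 and 601 CPM in E8.5 WT against 496 and 11.9 CPM in E8.5 null, and 1343, 911 and 944 CPM in E9.5 WT against 0, 0 and 71.2 CPM in E9.5 null. The genotypes did not overlap at any stage, although E8.5 null A came near the WT libraries. The fitted difference was -2.94 (SE 0.78, adjusted p = 0.575) and the mean difference was -479 CPM (exact permutation test, p = 0.00278, the smallest that this design allows). These 2 permutation p-values are therefore no independent evidence. The split of E8.5 null libraries was the same outside the node and notochord, with *Grb10* at 12.6 and 261 CPM and *H19* at 246 and 22.6 CPM in the other cells of null A and null B. Without E8.5 null B the fit called *Grb10*, and without E8.5 null A it called *H19*.

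**Figure D4:**
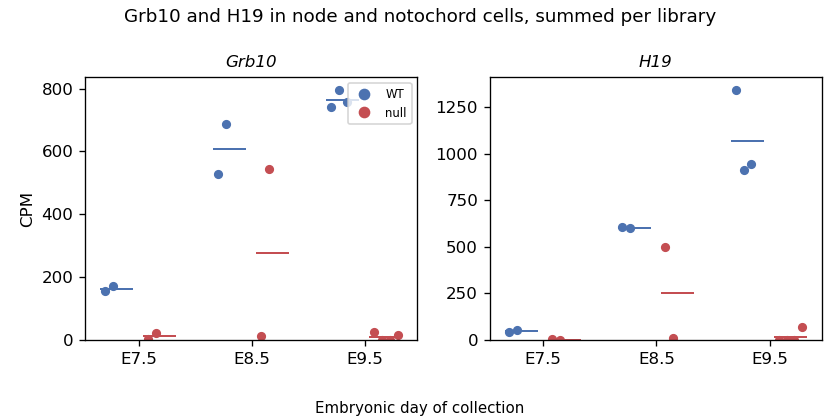
*Grb10* and *H19* in CPM summed over the marker-holding cells of each library, by embryonic day, WT in blue and null in red. Points are the 15 libraries with such cells (E9.5 null C, with 2 cells, was not in the fit) and lines are group means; null libraries lie low at every stage except for *Grb10* in E8.5 null B (543 CPM) and *H19* in E8.5 null A (496 CPM).

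Null and WT cells were also fitted within each stage. At E7.5, 2 of 4375 genes were called (0.0457%), 1 higher and 1 lower (0.0229% each). *Cst3*, the protease inhibitor cystatin C, was 279 and 313 CPM in WT and 769 and 1076 CPM in null (log2 1.65, SE 0.24, adjusted p = 0.0327), and *Grb10* was lower (-4.30, SE 0.57, adjusted p = 0.0327). The count was 19 without E7.5 WT A, 5 without WT B, 11 without null A and 6 without null B. In all other cells *Cst3* was 261 and 298 CPM in WT and 401 and 438 CPM in null at that stage. At E9.5 the single call among 2329 genes (0.0429%) was *Grb10*, with a log2 difference of -5.92 (SE 0.40, adjusted p = 3.47e-07). The count at E9.5 was 2 without null B, 5 without null D and 1 without each other library. *Grb10*, known from earlier results of these data, passed the filter on low counts through WT alone at E7.5 and at E9.5. It had to be lower in null, so both of its calls are a description.

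At E8.5, 11 of 2642 genes were called (0.416%), 2 higher (0.0757%) and 9 lower (0.341%) in null. *Top2a*, the topoisomerase of dividing cells, was 557 and 522 CPM in WT and 94.5 and 137 CPM in null, a difference of -2.25 (SE 0.29, adjusted p = 2.34e-05). *Cdk1*, the mitotic kinase, was 183 and 185 CPM against 29.5 and 35.8 CPM, *Mki67*, the Ki-67 antigen, 245 and 192 CPM against 59.1 and 53.7 CPM, and *Cenpf*, a kinetochore protein, 659 and 297 CPM against 70.9 and 102 CPM. *Prc1* and *Nusap1*, both of the spindle, were lower by 2.58 (SE 0.47) and 2.67 (SE 0.48). For each of the 4 genes given by library, the higher null library was below the lower WT library. These genes were picked as called, so this lack of overlap is a description. The other calls were *Greb1*, *Ifitm1* and *Mt1*, lower, and *Defa30* and *Gstm5*, higher. *Cdk1*, *Mki67*, *Prc1*, *Nusap1* and *Greb1* passed the filter on low counts through WT alone. They had to be lower in null, so their calls are a description, and the count of 11 includes them. With each of 4 libraries left out in turn, *Greb1* lost its call in 4 fits, *Mt1* and *Gstm5* in 3, *Ifitm1* and *Nusap1* in 2, and *Defa30*, *Top2a*, *Cdk1*, *Mki67*, *Cenpf* and *Prc1* in 1. Each of these fits, like those within E7.5, had a single library of one genotype, which is assumed to vary like the other genotype, so a kept call there is no measure of stability.

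The summed levels of marker lists of other cell types also differed between these E8.5 libraries. The 13 floor plate and neural markers summed to 139 and 475 CPM in WT, with 9 of them detected, and to 41.8 and 118 CPM in null, with 5 detected. *Olig2*, *Dbx1*, *Nkx6-2* and *Ferd3l* were at 0 in both genotypes, and *Sox1*, *Pax6*, *Pax3* and *Nkx6-1* in null. The 13 gut and definitive endoderm markers summed to 350 and 387 CPM in WT (11 detected) and to 171 and 305 CPM in null (5 detected), where *Sox17*, *Foxa3* and *Hhex* were at 0. Visceral endoderm markers stood at 95.1 and 119 CPM in WT and at 76.8 and 77.6 CPM in null, and paraxial and presomitic mesoderm markers at 66.1 and 74.7 CPM against 88.6 and 89.6 CPM. The lists of neuromesodermal, primitive streak and blood markers overlapped between the genotypes. The part of these differences in the calls at E8.5 was not tested.

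This difference was found in 1 stage and rested on few cells. DESeq2 called 2 genes at E8.5 (*Top2a* and *Cenpf*), and edgeR called 0 without E8.5 WT B, 19 without WT A, 23 without null A and 22 without null B. The difference between the genotype effect at E8.5 and the mean of the others was called for 0 of 4018 genes (126 at an unadjusted p under 0.05), and for *Top2a* it was -1.78 (SE 1.15, adjusted p = 1.00). After thinning to 10000 UMIs, *Top2a* was found in 44.4% of 18 WT cells (21.5 to 69.2%) and 41.2% of 17 null cells (18.4 to 67.1%). By the same measure *Cdk1* was found in 38.9% of WT and 17.6% of null cells. *Mki67* was found in 38.9% and 29.4% and *Cenpf* in 50% and 41.2%. These shares pool the cells of all E8.5 libraries of a genotype, and the intervals cover counting error only, not the spread between libraries. In all other cells of these libraries *Top2a* was 437 and 471 CPM in WT against 404 and 469 CPM in null. Summed over 28 listed proliferation genes, the level was 4252 and 3787 CPM in E8.5 WT and 1850 and 2442 CPM in E8.5 null, a sum that includes the genes called above. At E7.5 it was 2015 and 4172 CPM in WT and 2822 and 3335 CPM in null, and at E9.5 it was 3638 to 5138 CPM in WT and 2345 to 4836 CPM in null. The genotypes overlapped at E7.5 and E9.5.

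**Figure D5:**
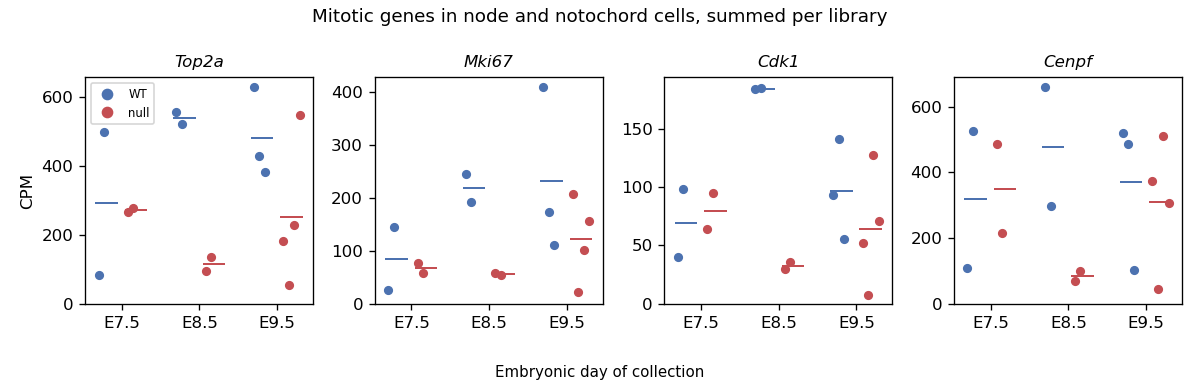
*Top2a*, *Mki67*, *Cdk1* and *Cenpf* in CPM summed over the marker-holding cells of each library, by embryonic day, WT in blue and null in red. Points are the 15 libraries with such cells (E9.5 null C, with 2 cells, was not in the fit) and lines are group means; at E8.5 the null points lie below the WT points in each panel, and at E7.5 and E9.5 the genotypes overlap.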

How the data were processed

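The authors mapped reads to mm10 with Cell Ranger and deposited UMI counts per gene and cell (29453 genes), with a table of cells that holds quality filters, doublet calls, the mitochondrial and ribosomal RNA of each cell as percent and label scores as fraction, per the file headers. Cells that passed the authors' quality filter and were not called doublets were used. This left out 3395 doublets and, as in the study, 596 singlets of the WT sort in which tdTomato was counted, 1 of them a member. Counts were summed per library. Members and gene lists were chosen with earlier results of these data known. The fit planned for libraries with over 15 members could not be made (1 library passed), so cells with at least 2 of 4 markers in libraries with at least 3 were used, chosen after seeing the data. edgeR 4.0.16 (filterByExpr, TMM, quasi-likelihood, stage and genotype as terms, Benjamini-Hochberg over all genes, gene classes that the study removed as noisy left out, except imprinted genes, which were kept) ran in R 4.3.3, with DESeq2 1.42.0 and limma 3.58.1 as alternatives. The fit was also run on simulated counts in which every gene had the same spread. Its outcome is no measure of power in these data and is not given. Shares were tested over types with at least 20 cells. Depth per library in the fit was 77342 to 1130628 UMIs, where 3 UMIs are 38.8 to 2.65 CPM. Genes named beyond the lists were *Stat3*, the markers, up to 10 called genes per direction with the largest fold change and no overlap of libraries, and the 20 leading genes, and the within-stage fits were added later and their calls named in full. Gene positions are from GENCODE vM21 and promoter sequences from RefSeq, both GRCm38. Some genes of the lists are not reported here.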

Additional observations from a re-analysis of the deposited data

Results flagged for a closer look

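In 2 of the 8 E9.5 libraries the share of the Node label stood apart from the other libraries of the same genotype. It was 33.3% of members in E9.5 WT C and 50% in E9.5 null A, against 0% in the other libraries of each group. Since the other libraries were all at exactly 0%, a single Node-labelled cell is enough to flag a library, and no chance rate can be given. All 5 of these Node-labelled cells held fewer than 2 of the 4 markers, and 4 of them held *Pyy* and *Isl1*.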

How the results depend on the processing

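The count of genes differing between null and WT was 0 and moved to 1 with DESeq2, 1 with limma-voom, 9 with no filter on low counts, and 1 with all labelled cells in libraries over 5 cells, and ran from 0 to 1 when each library was left out. The E8.5 against E7.5 count (368) was 1106 and the E9.5 against E8.5 count (34) 110 with no filter, and the latter ran from 13 to 56 over libraries left out. The genotype effect against other cells (0) was 12 with no filter and 0 to 1 over libraries left out. The log2 difference in share at E7.5 ran from 0.067, without WT B, to 0.88, without WT A, and was 1.29 for the Notochord label alone. At E8.5 it ran from -0.23, without null B, to 1.27, and at E9.5 from -0.28, without WT B, to 0.38, and was -0.0095 at E9.5 for the Notochord label alone. The Node label's share was -1.95 points in cells with at least 2 markers and -5.65 to 11.01 points over libraries left out, turning without E8.5 null B or without E9.5 null A. The cause of these moves was not tested. Over 50 results of single named genes, each a gene in 1 contrast between stages, with 1088 values under alternatives, 95 called values lost their call. Of the called values 0 changed sign. Results between null and WT are not in this tally, whereas stage results that were never called, such as those of *Noto*, are. Results that were not called did change sign: for *T*, null against WT ran from -0.19 to 0.26 and E9.5 against E8.5 from -0.73 to 0.22, and for *Foxa2* null against WT reached 0.085. The fits in libraries over 15 and over 30 cells were not run, since too few libraries passed. No paired analysis was possible because the library names match no sample's label, so the embryo pool of each library is not known.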

Other observations

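The label scores of the 138 members had a median of 0.92, 58 members scored 1, and the lowest score, 0.12, was that of the Node-labelled cell of E9.5 null A with *Dct* and *Pmel*. The 4 E9.5 cells labelled Node that held *Pyy* and *Isl1* scored 0.76 to 0.96. In cells of other types, *Pyy* reached 10 UMIs or more in 66 cells, 24 of them labelled Foregut, and *Dct* did so in 17, 6 of them labelled Optic vesicle.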
